A study of Mus musculus with 12 samples.

Results

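Expression of 8 genes of the S100 family, S100a1, S100a4, S100a6, S100a10, S100a11, S100a13, S100a16 and S100b, was followed in ribosome-bound and total RNA of the mouse spinal cord. They were selected by gene symbol out of the 40912 gene IDs of the deposited count table, and all 8 were among the 15905 IDs left for testing once genes with low counts were removed. The selection was made with earlier results of these libraries known, so the values below describe the family and the tests on it are no independent evidence.

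S100 proteins are small calcium-binding proteins with a pair of EF-hands, which mostly work as dimers. On binding calcium they expose a surface that grips other proteins, among them annexins, myosin heavy chains, kinases and ion channels, and some are also released from cells and act on receptors such as the receptor for advanced glycation end products, encoded by Ager. In the nervous system S100b is best known from astrocytes and oligodendrocytes, and it is one of the most widely used glial markers. S100a10, also called p11, is the exception in the family in that it does not bind calcium, and it is found in a complex with annexin A2.

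The mice were of postnatal day 21 and carried 1 of 2 bacTRAP transgenes, Tg(Chat-EGFP/Rpl10a)DW167Htz or Tg(Snap25-EGFP/Rpl10a)JD362Jdd, named here as the Chat and the Snap25 line. Both make an EGFP-tagged form of Rpl10a, a protein of the ribosome, driven by regulatory DNA of Chat, the acetylcholine-synthesising enzyme of cholinergic neurons, or by that of Snap25, a synaptic protein of neurons in general, so that tagged ribosomes can be pulled down with their RNA. The groups were TRAP_Chat and TRAP_Snap25, the pulldowns, and PreIP_Chat and PreIP_Snap25, the inputs taken before the pulldown, with 3 libraries each. All groups come from transgenic animals and none is a pulldown from mice without the tag. The labels do not say whether replicates are separate animals or pools, so p-values reflect the scatter among these libraries alone, which may be technical.

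Libraries held between 10149346 and 20521699 counts, and 3 counts were worth between 0.156 and 0.305 CPM, the count of a gene scaled to the size of its library and by TMM, a limit that covers counting error only. The gene behind each transgene was highest in its own pulldown. Chat averaged 159 ± 46.4 CPM in TRAP_Chat, 25 ± 4.56 CPM in TRAP_Snap25, 22.2 ± 7.24 CPM in PreIP_Chat and 16.1 ± 3.06 CPM in PreIP_Snap25 (SD, n = 3 each), and all 9 of 9 listed genes of cholinergic motor neurons rose in TRAP_Chat against PreIP_Chat. Snap25 averaged 15700 ± 781 CPM in TRAP_Snap25 and 9480 ± 955 CPM in PreIP_Snap25 (SD, n = 3 each), which did not pass (edgeR adjusted p = 0.0544). Markers of glia were low in the pulldowns but not at 0. The 14 oligodendrocyte markers summed to between 2360 and 6330 CPM in TRAP_Chat, 1820 and 5680 CPM in TRAP_Snap25, 18800 and 24500 CPM in PreIP_Chat, and 17400 and 23300 CPM in PreIP_Snap25, and Mbp, the highest of them, encodes a myelin protein.

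In the GENCODE M21 annotation 7 of the members lie on chromosome 3 and S100b lies on chromosome 10. S100a11 and S100a10 are direct neighbours there, and so are S100a1 and S100a13, whose start sites face away from each other. RefSeq promoter windows on GRCm38.p6 were found for 7 of the 8 members, and S100a10 had no entry. The windows of S100a11 and S100b are shown because both genes were higher in TRAP_Chat than in either its input or TRAP_Snap25, and the stretch between the starts of S100a1 and S100a13 because both genes were low in the pulldowns. The first 2 are the 250 bases upstream of the start, chr3:93520246-93520495 and chr10:76253586-76253835, and the third is chr3:90514331-90514434, all on the plus strand and written 5′ to 3′. Capitals mark the GC box GGGCGG and the AP-1 site TGANTCA, where N is any base.
S100a11: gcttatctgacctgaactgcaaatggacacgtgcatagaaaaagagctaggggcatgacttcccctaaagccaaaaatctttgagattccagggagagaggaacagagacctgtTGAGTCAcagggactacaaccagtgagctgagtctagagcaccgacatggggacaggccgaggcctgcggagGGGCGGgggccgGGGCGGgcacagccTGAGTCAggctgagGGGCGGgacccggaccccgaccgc
S100b: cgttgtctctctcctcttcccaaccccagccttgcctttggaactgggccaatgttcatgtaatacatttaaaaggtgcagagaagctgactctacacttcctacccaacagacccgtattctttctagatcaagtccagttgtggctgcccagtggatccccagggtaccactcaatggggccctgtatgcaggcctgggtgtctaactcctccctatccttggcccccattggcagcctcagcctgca
S100a1_S100a13: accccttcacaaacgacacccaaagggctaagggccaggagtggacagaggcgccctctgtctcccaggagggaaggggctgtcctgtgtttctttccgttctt
These 2 motifs and the TATA box TATAAA were searched on both strands after the sequences had been seen. Of 32851 promoter windows of 250 bases, 12.4% held the TATA box, 32.7% the GC box and 6.75% the AP-1 site, and none of these motifs overlapped another in the windows shown. The S100a11 window held 3 GC boxes and 2 AP-1 sites, and the S100b window held none of the 3 motifs. Between S100a1 and S100a13 lie 104 bases with a GC content of 58.7%, with no match either. Among windows not shown, that of S100a4 held a TATA box 31 bases upstream of its start. A second window of S100a16, which fell in both pulldowns, held a GC box 30 bases and an AP-1 site 192 bases upstream. A match is a description of the letters and no match says nothing of the factors.

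S100b was the most abundant member in every group. Per kilobase of exon it stood at 631 ± 75 CPM in TRAP_Chat, 251 ± 19.2 CPM in TRAP_Snap25, 333 ± 65.7 CPM in PreIP_Chat and 369 ± 96.2 CPM in PreIP_Snap25 (SD, n = 3 each), which ranked it 43rd, 133rd, 60th and 62nd of 15854 tested genes with a known length. It took 73.5% of the family's summed CPM in TRAP_Chat, 79.6% in TRAP_Snap25, 63.6% in PreIP_Chat and 61.9% in PreIP_Snap25. The second place differed between fractions. In TRAP_Chat it was held by S100a10 at 226 ± 79.7 CPM per kilobase, and in TRAP_Snap25 by S100a10 again at 50.7 ± 14.6. In PreIP_Chat it was held by S100a16 at 73.7 ± 10.7 CPM per kilobase, close to S100a1 at 69.6 ± 1.35, and in PreIP_Snap25 by S100a16 at 95.9 ± 52.1, again close to S100a1 at 90.2 ± 27.3. The lowest member was S100a4 in every group, at 5.11 ± 3.78 CPM per kilobase in TRAP_Chat and 0.606 ± 0.569 in TRAP_Snap25, and at 11.7 ± 4.48 in PreIP_Chat and 15.3 ± 5.82 in PreIP_Snap25. In TRAP_Chat its range overlapped those of S100a1, S100a6, S100a13 and S100a16, so that the order of these 5 members is not settled by 3 libraries. S100a11 held the third place in TRAP_Chat, at 45.4 ± 11.3 CPM per kilobase, and was the second lowest member in PreIP_Chat at 13.8 ± 2.68 and in PreIP_Snap25 at 17.9 ± 4.83, where its range overlapped that of S100a4.

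**Figure D1:**
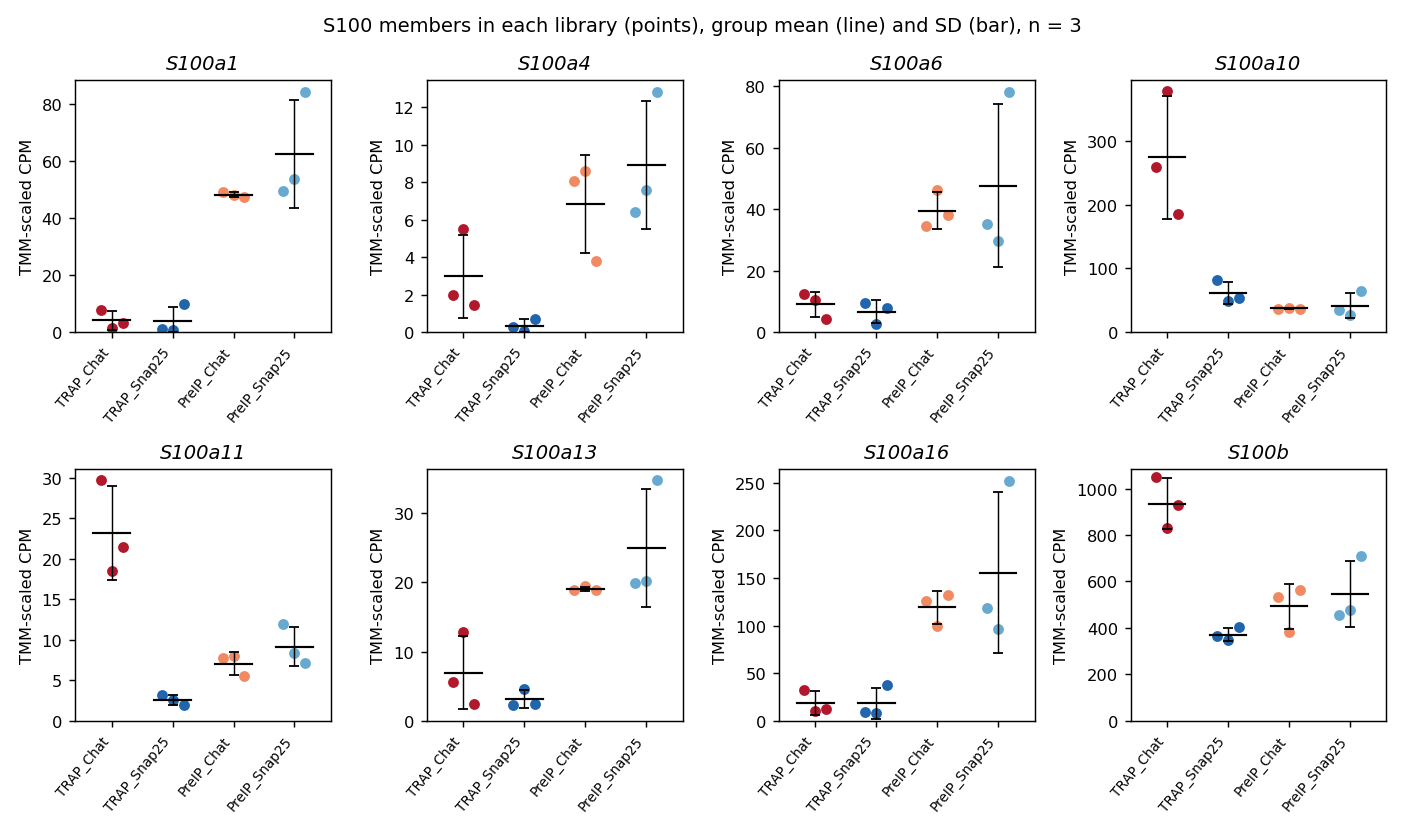
TMM-scaled CPM (linear axis, 1 panel per gene with its own scale) of the 8 members in each of the 12 libraries, with points for libraries, the line for the group mean and the bar for the SD (n = 3). S100a10, S100a11 and S100b are highest in TRAP_Chat, whereas S100a1, S100a6, S100a13 and S100a16 are highest in the inputs.

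The Chat pulldown was first set against its own input, which asks which RNAs ribosomes of the tagged cells hold more or less of. The family split. S100a10, S100a11 and S100b rose in TRAP_Chat, S100a1, S100a6, S100a13 and S100a16 fell, and S100a4 did not pass the test. In total, 7 of 8 members were called (edgeR, adjusted p under 0.05 over all tested genes), in a comparison that called 26.9% of all tested genes, 12.6% higher and 14.3% lower. The members' median log2 fold change was -1.33, and that of all tested genes -0.06. Libraries of the groups did not overlap for 7 members, 3 higher and 4 lower, and for 47.9% of tested genes, 21.8% higher and 26.1% lower. Because the members were chosen with these contrasts in view, nothing is read from the shares.

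S100a10 changed most upward. It stood at 259, 378 and 186 CPM in the TRAP_Chat libraries and at 36.2, 38.5 and 37 CPM in the PreIP_Chat libraries. Every pulldown library lay far above every input library, and the pulldown libraries differed from each other far more than the inputs did. The change was 7.36-fold (2.88 ± 0.34 on the log2 scale, SE, n = 3 each, edgeR adjusted p = 3.85e-05). In bulk RNA of this kind, more cells of a type and more RNA per cell cannot be told apart.

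S100a11, a partner of annexin A1 that takes part in membrane and cytoskeletal events, followed at a lower level. Its libraries read 29.7, 18.5 and 21.4 CPM in TRAP_Chat and 7.75, 7.97 and 5.5 CPM in PreIP_Chat. The groups were clearly apart, with a 3.28-fold rise (1.71 ± 0.34 on the log2 scale, SE, edgeR adjusted p = 0.00206). S100a11 has processed copies in the genome that share sequence with it, of which Gm12854 matched 98.99% of 297 bases, so their reads may not be separable. Gm12854 itself had at most 11 counts in a library, against between 19 and 480 for S100a11.

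S100b rose least of the 3. It reached 1050, 829 and 928 CPM in TRAP_Chat, against 534, 382 and 564 CPM in PreIP_Chat. The lowest pulldown library lay above the highest input library, and the rise was 1.9-fold (0.92 ± 0.24 on the log2 scale, SE, edgeR adjusted p = 0.0104). Without PreIP_Chat replicate 2, the lowest input, the rise was 0.76 on the log2 scale and did not pass (adjusted p = 0.0699).

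Astrocyte and oligodendrocyte markers, which label the cells S100b is best known from, went the other way. All 10 of 10 astrocyte markers and 14 of 14 oligodendrocyte markers fell in TRAP_Chat, and relative to the mean of the input their sums were between 24.4% and 43% for astrocytes and between 10.8% and 29.1% for oligodendrocytes. S100b stood at 213%, 168% and 188% of the input mean in the same libraries. Schwann cells, glia of the peripheral nerve that also carry S100b, were described by Prx, Ncmap and Pmp22. Prx, a protein of peripheral myelin, fell in both pulldowns (edgeR adjusted p = 0.00919 in TRAP_Chat and 0.00888 in TRAP_Snap25). Ncmap had log2 fold changes of -1.13 and -1.31 there, which did not pass (adjusted p = 0.157 and 0.122). Pmp22, another myelin protein, stood at 947 ± 29.5 CPM in TRAP_Chat and 665 ± 229 CPM in PreIP_Chat (SD, n = 3 each). This difference did not pass either (edgeR adjusted p = 0.335). None of these markers was at 0 in any group, and the part of Schwann cells in the S100b level was not tested.

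S100a1, known from heart and skeletal muscle as a regulator of calcium release channels, fell furthest. It read 7.85, 1.36 and 3.33 CPM in TRAP_Chat and 49.3, 48.1 and 47.5 CPM in PreIP_Chat. The inputs were nearly equal and the pulldowns were all far below them, by 11.5-fold (-3.52 ± 0.72 on the log2 scale, SE, edgeR adjusted p = 0.00222). S100a16, a broadly expressed member, read 32.8, 10.1 and 12.3 CPM in TRAP_Chat and 126, 99.6 and 132 CPM in PreIP_Chat, a fall of 6.47-fold (adjusted p = 0.00218). S100a6, also called calcyclin, read 12.4, 10.4 and 4.37 CPM in TRAP_Chat against 34.6, 46.2 and 38 CPM in PreIP_Chat and fell 4.38-fold (edgeR adjusted p = 0.00392).

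For S100a13, which in other cells helps release Fgf1, the pulldown libraries read 5.62, 12.8 and 2.45 CPM and the input libraries 18.8, 19.4 and 18.9 CPM. The fall was 2.75-fold (-1.46 ± 0.47 on the log2 scale, SE, edgeR adjusted p = 0.0293). It did not pass without TRAP_Chat replicate 1 or 3 or without any 1 of the PreIP_Chat libraries (adjusted p from 0.065 to 0.0912). S100a4, which binds nonmuscle myosin, read 1.98, 5.52 and 1.46 CPM in TRAP_Chat and 8.06, 8.58 and 3.81 CPM in PreIP_Chat. Its groups overlapped and its log2 fold change of -1.20 ± 0.62 did not pass (edgeR adjusted p = 0.162), but it did without TRAP_Chat replicate 2, the highest pulldown library (log2 fold change -1.94, adjusted p = 0.0451).

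**Figure D2:**
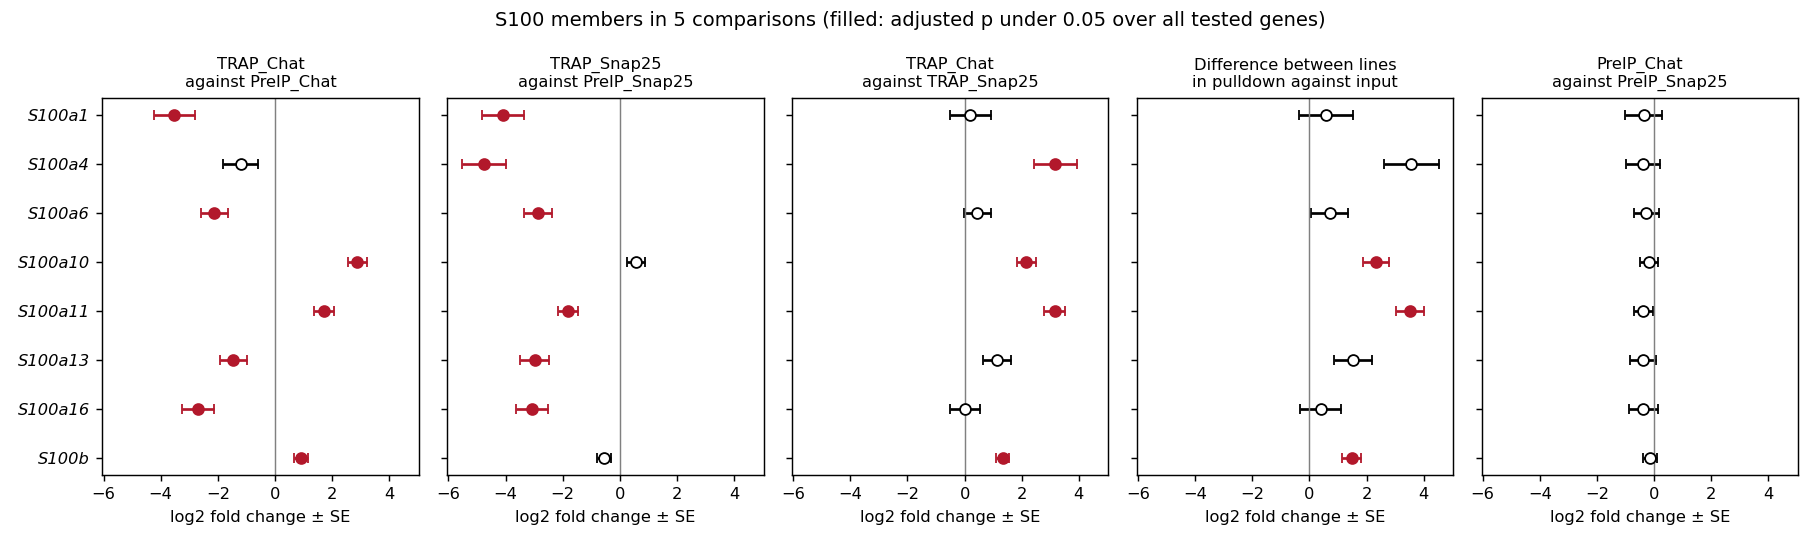
Log2 fold change ± SE (horizontal axis) of the 8 members in the 5 comparisons, from the edgeR fit, with filled points where the adjusted p was under 0.05. S100a10 is at 2.88 and S100a1 at -3.52 in TRAP_Chat against PreIP_Chat, and no member is filled between the inputs.

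The Snap25 pulldown was set against its own input in the same way, with a transgene of neurons in general. Cholinergic neurons are not set apart from these. Of the listed genes of cholinergic motor neurons 4 of 9 rose in TRAP_Snap25, and 2 of 10 of those of neurons in general. No S100 member rose. S100a1, S100a4, S100a6, S100a11, S100a13 and S100a16 fell, S100a10 did not pass the test, and S100b did not pass it either. The 6 of 8 members called compare with 22.4% of all tested genes, 9.69% higher and 12.7% lower, and the median log2 fold change of the members was -2.91, against 0 for all genes. The libraries did not overlap for 7 members, all lower, and for 38% of tested genes, 16.6% higher and 21.4% lower.

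S100a4 was lowest relative to the input. It read 0.294, 0.0558 and 0.712 CPM in TRAP_Snap25, from 4, 1 and 7 counts, against 6.38, 7.57 and 12.8 CPM in PreIP_Snap25. At so few counts the 27.2-fold fall is loosely fixed (-4.77 ± 0.77 on the log2 scale, SE, edgeR adjusted p = 0.000667), though all pulldown libraries were far below all inputs. S100a1 read 1.18, 0.67 and 9.76 CPM in TRAP_Snap25 and 49.6, 53.9 and 84.3 CPM in PreIP_Snap25, a fall of 17-fold (-4.09 ± 0.74 on the log2 scale, SE, edgeR adjusted p = 0.00149). The third pulldown library was much higher than the other two.

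S100a16 showed the same high library, at 9.77, 8.65 and 37.2 CPM in TRAP_Snap25 and 118, 96.2 and 252 CPM in PreIP_Snap25, and fell 8.45-fold (edgeR adjusted p = 0.00144). S100a6 read 9.48, 2.57 and 8.03 CPM in TRAP_Snap25 against 35.1, 29.8 and 78.3 CPM in PreIP_Snap25 and fell 7.19-fold (adjusted p = 0.00108). S100a13 read 2.28, 4.63 and 2.44 CPM in TRAP_Snap25 against 19.9, 20.1 and 34.7 CPM in PreIP_Snap25 and fell 7.88-fold (edgeR adjusted p = 0.000887). PreIP_Snap25 replicate 3 was the highest library of its group for every member but S100a11.

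S100a11 turned the other way from its change in the Chat line. Its libraries read 3.23, 2.62 and 1.93 CPM in TRAP_Snap25 and 11.9, 8.42 and 7.17 CPM in PreIP_Snap25, all pulldowns below all inputs, with a 3.51-fold fall (-1.81 ± 0.36 on the log2 scale, SE, edgeR adjusted p = 0.0025). S100a10 read 81.6, 48.5 and 54.3 CPM in TRAP_Snap25 and 34.5, 26.9 and 64.1 CPM in PreIP_Snap25, and the groups overlapped (log2 fold change 0.56 ± 0.32, adjusted p = 0.234). Without PreIP_Snap25 replicate 3 its log2 fold change was 0.99 and passed (adjusted p = 0.0402). S100b read 367, 346 and 402 CPM in TRAP_Snap25 and 454, 476 and 711 CPM in PreIP_Snap25. All pulldown libraries were lower but the log2 fold change of -0.56 ± 0.24 did not pass (edgeR adjusted p = 0.108).

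Levels relative to the input were set beside the glial markers library by library. The oligodendrocyte sum stood at 29.1%, 10.8% and 15.7% of the input mean in TRAP_Chat replicates 1, 2 and 3, and at 11.9%, 9.04% and 28.2% in TRAP_Snap25 replicates 1, 2 and 3. S100a16 stood at 27.5%, 8.5% and 10.4% in the same TRAP_Chat libraries and at 6.3%, 5.58% and 24% in the TRAP_Snap25 ones. S100a1 stood at 16.2%, 2.81% and 6.9% in TRAP_Chat and at 1.88%, 1.07% and 15.6% in TRAP_Snap25. For both genes, as for the oligodendrocyte sum, TRAP_Chat replicate 1 and TRAP_Snap25 replicate 3 were the highest of their groups. The astrocyte, oligodendrocyte precursor and microglia sums were highest in the same libraries. They stood at 43%, 23.5% and 24.9% in TRAP_Chat replicate 1 and at 65.4%, 33.3% and 22.9% in TRAP_Snap25 replicate 3. This order was thus not particular to oligodendrocytes. The astrocyte sum leans on Aldoc, the highest of its markers in the inputs. Aldoc was not called in TRAP_Snap25 against PreIP_Snap25 (log2 fold change -0.05, edgeR adjusted p = 0.926). In that comparison 9 of 10 astrocyte markers fell, and the median log2 fold change of the list was -2.55. S100a4 and S100a13 had another order in TRAP_Chat, at 29%, 80.9% and 21.4% for S100a4 and 29.5%, 67.4% and 12.8% for S100a13. Both were highest in replicate 2, where the oligodendrocyte sum was lowest. In TRAP_Chat the sums of cholinergic motor neuron, sensory neuron and skeletal muscle markers were highest in that library too. They read 2480, 3990 and 3480 CPM, 2.47, 12.8 and 4.11 CPM, and 0.68, 40 and 3.33 CPM in replicates 1, 2 and 3. S100a6 was highest in replicate 1 of both lines. The part of RNA from these glia or from other cells in these levels was not tested. S100a10 stood at 696%, 1010% and 499% of its input mean in TRAP_Chat and at 195%, 116% and 130% in TRAP_Snap25, and was highest in TRAP_Chat replicate 2 and TRAP_Snap25 replicate 1. S100a11 stood at 419%, 262% and 302% in TRAP_Chat and at 35.2%, 28.6% and 21.1% in TRAP_Snap25, highest in replicate 1 of each. Its order thus resembled that of the oligodendrocyte sum in TRAP_Chat but not in TRAP_Snap25.

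**Figure D3:**
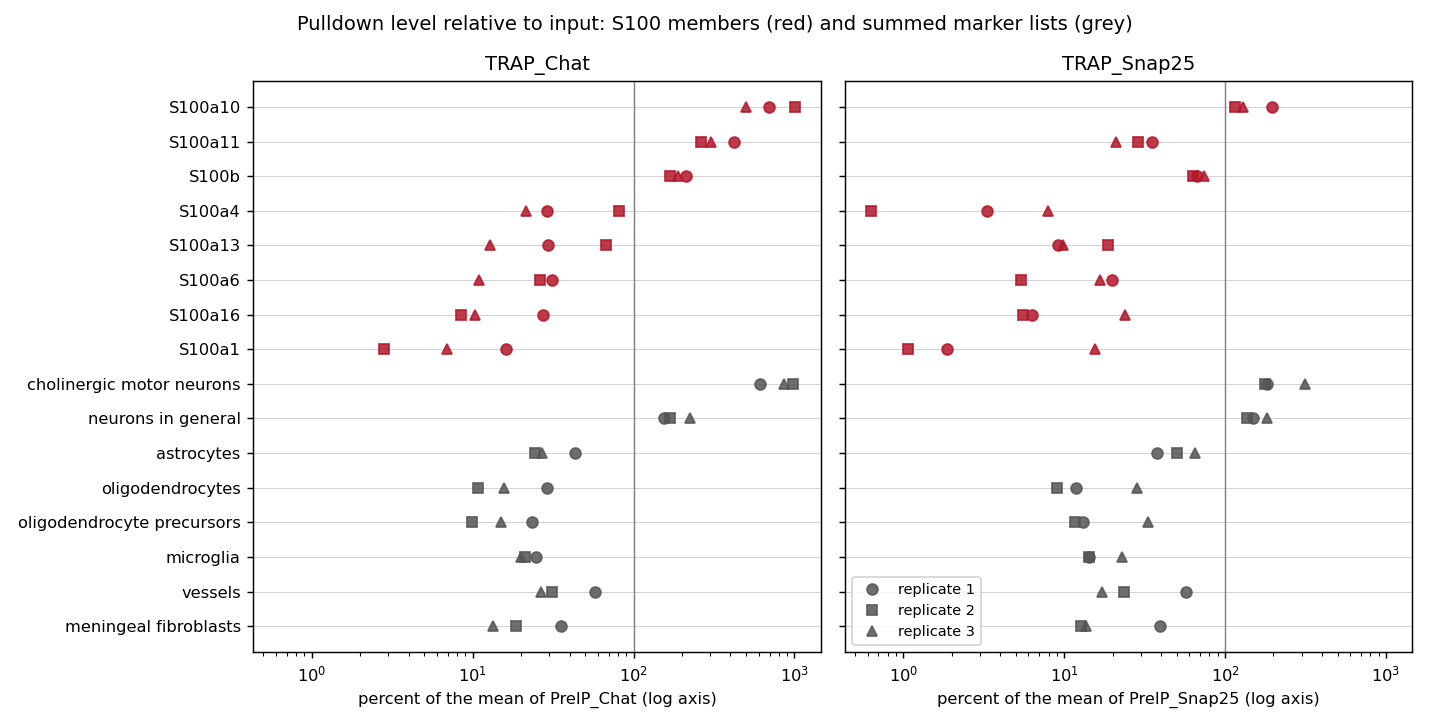
Level in each pulldown library as a percent of the mean of its input group (log axis), for the 8 members in red and for summed marker lists in grey, with 1 symbol per replicate. In TRAP_Chat S100a10, S100a11 and S100b lie right of 100%, as do the lists of motor neurons and of neurons in general. The other 5 members lie left of 100% there, as do all lists of other cell types shown.

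The pulldowns of the 2 lines were then compared with each other, a contrast that reuses the TRAP_Chat and TRAP_Snap25 libraries of the comparisons above. S100a4, S100a10, S100a11 and S100b were higher in TRAP_Chat and no member was lower. These 4 of 8 members stand beside 6.75% of all tested genes called, 3.97% higher and 2.77% lower, and 4 members did not overlap between the groups, all of them higher, as did 19.8% of tested genes, 10.3% higher and 9.47% lower. The members' median was 2.35-fold higher in TRAP_Chat, against 1.01-fold for all genes. The largest well-measured difference was in S100a11, whose TRAP_Chat libraries at 18.5 CPM or more stood against TRAP_Snap25 libraries at 3.23 CPM or less, an 8.86-fold difference (SE 0.37 on the log2 scale, edgeR adjusted p = 0.000113). S100a10 differed 4.46-fold (log2 fold change 2.16 ± 0.33, SE, adjusted p = 0.000804) and S100b 2.52-fold (1.33 ± 0.24, SE, edgeR adjusted p = 0.00335), with every TRAP_Chat library above every TRAP_Snap25 library.

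S100a4 differed 9.06-fold between the pulldowns (3.18 ± 0.75 on the log2 scale, SE, edgeR adjusted p = 0.0172) on few counts. The call was lost with limma voom (adjusted p = 0.0649), with only these groups in the fit (0.153), and without TRAP_Chat replicate 2 (0.0638), TRAP_Snap25 replicate 1 (0.0537) or TRAP_Snap25 replicate 2 (0.0608). S100a13 had a log2 fold change of 1.13 ± 0.48 (adjusted p = 0.181), which passed without TRAP_Chat replicate 3 (1.54, adjusted p = 0.047). S100a1, S100a6 and S100a16 did not pass, with log2 fold changes of 0.20 ± 0.71, 0.44 ± 0.47 and 0.01 ± 0.52 (SE), and intervals this wide leave room for sizeable differences. Without TRAP_Snap25 replicate 3, S100a1 was higher in TRAP_Chat (log2 fold change 2.21, edgeR adjusted p = 0.0253), and the sign of S100a1 and S100a16 changed under other alternatives. None of 14 oligodendrocyte markers was called in this contrast, and 1 of 10 astrocyte markers was higher in TRAP_Chat and 1 lower. Pmp22 of the Schwann cell list stood at 947 ± 29.5 CPM in TRAP_Chat and 250 ± 46.2 CPM in TRAP_Snap25 (SD, n = 3 each). This was a 3.78-fold rise (edgeR adjusted p = 0.00669) in the same direction as S100b, whereas Prx and Ncmap of that list were not called. The cholinergic motor neuron markers went in this direction too, with 9 of 9 higher in TRAP_Chat and a median log2 fold change of 2.67.

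The change from input to pulldown was then compared between the lines as an interaction. It draws on all 4 groups, inputs included, and so shares its libraries with the 3 comparisons above. S100a11, S100a10 and S100b passed, each with the Chat line higher. These 3 of 8 members stand beside 1.04% of tested genes, 0.604% higher and 0.44% lower, and the members' median was 1.5 on the log2 scale, against 0.03 for all genes. The difference was 3.52 ± 0.50 on the log2 scale for S100a11 (SE, edgeR adjusted p = 0.00551), with a rise in the Chat line and a fall in the Snap25 line. It was 2.32 ± 0.46 for S100a10 (adjusted p = 0.0184) and 1.48 ± 0.34 for S100b (edgeR adjusted p = 0.0464). S100b missed the threshold in 11 of the 12 fits that left out 1 library (adjusted p from 0.0501 to 0.172 in those), and S100a10 without any 1 of the PreIP_Chat libraries or without PreIP_Snap25 replicate 3 (0.0559 to 0.0645), so that S100a11 was the member whose call did not depend on a single library. S100a4, at 3.57 ± 0.96 (adjusted p = 0.0906), passed with DESeq2 (0.00655) and with no filter on low counts (0.00435), and without TRAP_Snap25 replicate 3 (0.0346).

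Between the inputs of the lines no member passed the test. None of 8 was called by edgeR and none had an unadjusted p under 0.05, where 0% of tested genes were called, 133 genes had an unadjusted p under 0.05 and DESeq2 called 1. The libraries of the inputs did not overlap for 2 members, S100a1 and S100a13, both lower in PreIP_Chat, and for 8.04% of tested genes, 4.19% higher and 3.85% lower. All 8 log2 fold changes were between -0.39 and -0.15, with PreIP_Chat lower, and their standard errors ran from 0.24 for S100b to 0.64 for S100a1. For S100a6, S100a10, S100a16 and S100b the direction turned without PreIP_Snap25 replicate 3, the highest input library of these genes.

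Binding partners from the list of 36 genes were described beside the members. The list covers 12 annexins, of which 7 were tested, and 24 other proteins, of which 22 were tested. Anxa1, the annexin named above as a partner of S100a11, was not among the 7. In TRAP_Chat against PreIP_Chat 4 of the 7 annexins rose and none fell, with a median log2 fold change of 1.28 against -0.06 for all genes, of which 12.6% were called higher and 14.3% lower. Anxa2, the annexin that S100a10 binds as a tetramer, read 142, 214 and 129 CPM in TRAP_Chat and 22.8, 28.7 and 17 CPM in PreIP_Chat, a 7.07-fold rise (2.82 ± 0.29 on the log2 scale, SE, edgeR adjusted p = 1.34e-05) close in size to the 7.36-fold rise of S100a10. In the Snap25 line it read 28.5, 25.7 and 29.5 CPM in TRAP_Snap25 and 19, 13.4 and 24.8 CPM in PreIP_Snap25, and did not pass (adjusted p = 0.174), as S100a10 did not. Anxa4 rose 6.67-fold in TRAP_Chat against PreIP_Chat (adjusted p = 4e-04), and Anxa6 and Anxa7 rose too. In TRAP_Snap25 against PreIP_Snap25 only Anxa5, of the 7, was called, and it fell 2.5-fold (adjusted p = 0.00391), to 33.5, 26.3 and 45.9 CPM in TRAP_Snap25 against 88.6, 55.4 and 119 CPM in PreIP_Snap25.

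Between the pulldowns 4 of 7 annexins were higher in TRAP_Chat, Anxa2 5.79-fold, Anxa4 5.73-fold, Anxa5 4-fold and Anxa7 1.84-fold (edgeR adjusted p from 1e-04 to 0.0472), where 3.97% of all tested genes were called higher and 2.77% lower. In the difference between the lines 3 passed, Anxa2 at 2.27 ± 0.40 on the log2 scale (adjusted p = 0.00981), Anxa4 at 2.57 ± 0.60 (adjusted p = 0.0484) and Anxa5 at 1.73 ± 0.39 (edgeR adjusted p = 0.0425), where 1.04% of all tested genes were called. No annexin was called between the inputs.

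Of the other partners 3 of 22 rose and 2 fell in TRAP_Chat against PreIP_Chat, with a median log2 fold change of -0.05. These 5 of 22 lie near the 26.9% of all tested genes called. Kcnk3, the potassium channel TASK-1 whose traffic S100a10 regulates, read 105, 169 and 236 CPM in TRAP_Chat and 43.2, 35.9 and 35.5 CPM in PreIP_Chat, a 4.44-fold rise (2.15 ± 0.39 on the log2 scale, SE, edgeR adjusted p = 0.00107). Ahnak, a large scaffold that binds the S100a10 and annexin A2 complex, read 25.9, 8.92 and 9.94 CPM in TRAP_Chat and 62.7, 81.2 and 51.9 CPM in PreIP_Chat and fell 4.37-fold (adjusted p = 0.00529). In TRAP_Snap25 against PreIP_Snap25 it fell 5.68-fold (adjusted p = 0.003). Of other partners of S100a10 on the list, the serotonin receptors Htr1b and Htr4 and the sodium channel Scn10a were not called in TRAP_Chat against PreIP_Chat.

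Fgf1, the growth factor whose release S100a13 helps, read 1350, 2030 and 2480 CPM in TRAP_Chat and 374, 334 and 412 CPM in PreIP_Chat. The rise of 5.23-fold (2.39 ± 0.26 on the log2 scale, SE, edgeR adjusted p = 1.61e-05) ran opposite to the fall of S100a13 in the same libraries. Between the pulldowns Fgf1 was 4.34-fold higher in TRAP_Chat (adjusted p = 0.000124). Cacybp, the calcyclin-binding protein, rose in both pulldowns, at 55.1, 67.1 and 64.4 CPM in TRAP_Chat against 18.3, 27.2 and 22.6 CPM in PreIP_Chat (2.74-fold, adjusted p = 0.00306), whereas S100a6 fell in both. In the Snap25 line Cacybp read 75.2, 57.8 and 26.2 CPM in TRAP_Snap25 and 26.8, 27.5 and 30.5 CPM in PreIP_Snap25, so the groups overlapped, with a 1.88-fold rise (adjusted p = 0.0421). Stk38, a kinase bound by S100b, fell 2.96-fold in TRAP_Chat against PreIP_Chat (adjusted p = 0.0127) and 7.44-fold in TRAP_Snap25 against PreIP_Snap25 (edgeR adjusted p = 0.000549).

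In TRAP_Snap25 against PreIP_Snap25, where 22.4% of all tested genes were called, 1 of the 22 rose, Cacybp, and 5 fell, among them Ahnak, Stk38, Myh9, a myosin heavy chain that S100a4 binds, and Mdm2. The fifth, Ryr1, the skeletal muscle calcium release channel that S100a1 binds, had 0 counts in all 3 TRAP_Snap25 libraries, which allows up to 0.22, 0.167 and 0.305 CPM, and 1.1, 0.259 and 0.326 CPM in PreIP_Snap25, so no fold is given. Myh9 was 2.38-fold higher in TRAP_Chat than in TRAP_Snap25 (adjusted p = 0.0153), in the direction of S100a4, and together with Fgf1 and Kcnk3 it made up the 3 of 22 called there, beside 6.75% of all tested genes. Only Fgf1 passed in the difference between the lines (4.06-fold, edgeR adjusted p = 0.00968). None of the 22 was called between the inputs.

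**Figure D4:**
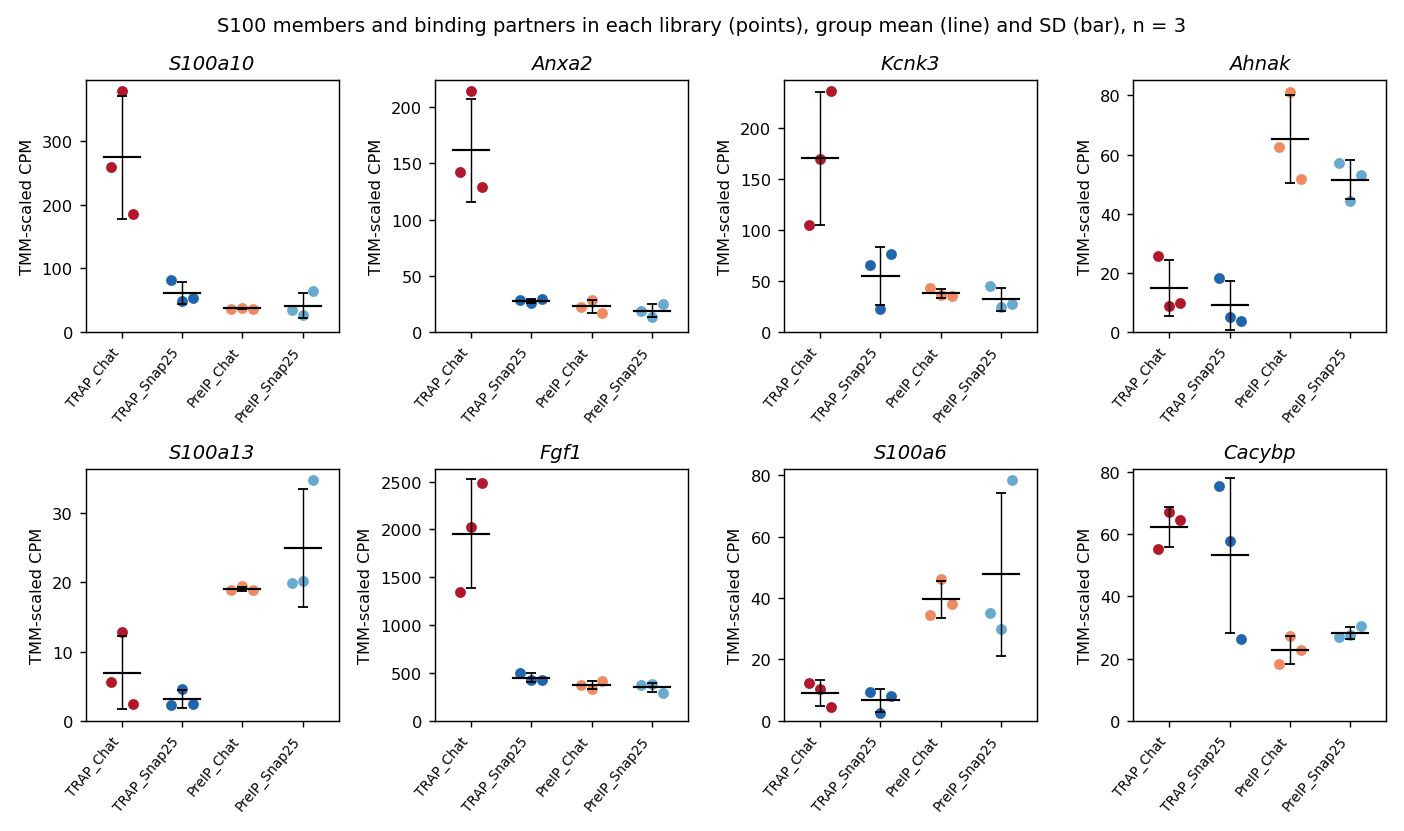
TMM-scaled CPM (linear axis, 1 panel per gene with its own scale) in each of the 12 libraries for S100a10 with Anxa2, Kcnk3 and Ahnak, S100a13 with Fgf1, and S100a6 with Cacybp, with points for libraries, the line for the group mean and the bar for the SD (n = 3). Anxa2 reaches 129 CPM or more in TRAP_Chat and 29.5 CPM or less in TRAP_Snap25, while Ahnak is highest in the inputs.

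Other S100 genes were barely detected. Of a list of 9 further mouse S100 genes 8 were in the table and 3 passed the filter, S100a3, S100a8 and S100a9, none of which was called in any comparison. S100a8 and S100a9, the calprotectin subunits of neutrophils, averaged 1.7 ± 1.44 and 3.54 ± 3.37 CPM in TRAP_Chat, 0.472 ± 0.678 and 1.02 ± 0.447 CPM in TRAP_Snap25, 4.39 ± 5.46 and 5.95 ± 7.14 CPM in PreIP_Chat, and 2.57 ± 0.28 and 2.79 ± 0.553 CPM in PreIP_Snap25 (SD, n = 3 each). PreIP_Chat replicate 2 held 193 and 255 counts of S100a8 and S100a9, the most of any library. S100g, the vitamin D-dependent calcium-binding protein calbindin-D9k, was not tested, and had 25, 7 and 7 counts in TRAP_Chat, 1, 1 and 0 in TRAP_Snap25, 0, 0 and 1 in PreIP_Chat, and 4, 5 and 3 in PreIP_Snap25. S100a5 and S100z had no count in any library, and S100a7a and S100a14 at most 7. S100a2, which is not on that list, had at most 6 counts in a library. Of the 7 S100 fused-type genes, which join an S100 domain to a long repeat, 1 was tested and none was called.

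Genes of the likest pattern were sought for each member by Pearson correlation of log2 CPM over the 12 libraries, among 10151 genes, as a description in which all points share the same libraries and groups. For S100a10 these were Lgals1 (r = 0.982), Anxa2 (0.972) and Acly (0.968), and for S100a11 Clic1 (0.94), Taf7 (0.929) and Cfap126 (0.916). S100b was most like Hist1h2bc (0.94), Ldah (0.926) and Cpt1a (0.923). S100a1 was most like Olig1 (0.992), Cldn11 (0.992) and Sparc (0.991), and S100a16 like Opalin (0.991), Apoe (0.991) and Pllp (0.987), of which Cldn11 and Opalin are in the oligodendrocyte list. S100a6 was most like Ntsr2 (0.972), Fgfr2 (0.967) and Igsf11 (0.964), S100a4 like Cryab (0.973), Notch2 (0.955) and Mt2 (0.942), and S100a13 like Fcer1g (0.961), Sptan1 (0.95) and Tulp3 (0.94). Among the members themselves the likest pair was S100a1 and S100a16 (r = 0.98), and S100a11 was most like S100b (0.83), ahead of its neighbour S100a10 (0.58). The neighbours S100a1 and S100a13 had an r of 0.76.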

How the data were processed

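RNA from spinal cord was processed by the authors as raw read counts per gene, for which the submitters' processing notes name STAR and HTSeq, and the deposited values are whole-number counts. Tool versions, the genome build and annotation, and whether counting used strand were not given in the sources used here, so reads of overlapping genes cannot be told apart with certainty. Per the labels' protocols, ribosomes were pulled down for 4 h at 4 °C and libraries amplified with a Nugen Ovation kit were sequenced on a HiSeq2500. Of 41736 lines, 824 exact repeats were dropped, leaving 40912 IDs.

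Counts were tested with edgeR 4.0.16 in R 4.3.3 (filterByExpr, TMM, glmQLFit and glmQLFTest, all 12 libraries in 1 fit, two-sided, Benjamini-Hochberg over 15905 genes, threshold 0.05). The log2 fold changes carry the SE of that fit, and CPM are TMM-scaled. Exon lengths and neighbours came from GENCODE M21. S100a4 shares 51.7% of its exon bases with Gm42674 there, which is not in the table. Alternatives were RLE scaling, DESeq2 1.42.0, limma 3.58.1 (voom), no filter, at least 1 CPM in 3 libraries, only the groups compared, a replicate block (line and number, or number across lines), and leaving out each library.

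The members and the gene lists were chosen with earlier results of these data known. Named partners are the 2 called members of each list with the largest rise and fall per comparison. Anxa6, Anxa7, Myh9, Mdm2 and values of a partner in comparisons where the rule does not name it were chosen after values were seen. The fit was tested on data simulated from its own model, which says nothing of how the replicates were made. A Schwann cell marker and the sum that holds it are not reported here. Likeness used log2 CPM with a prior count of 2 and genes averaging 5 CPM or more. Replicate numbers were not treated as pairs, because same-numbered inputs and pulldowns did not deviate together in every pair. With so few libraries this cannot exclude pairs, and fits with pairs as blocks are given below.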

Additional observations from a re-analysis of the deposited data

Results flagged for a closer look

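For 3 members the change from input to pulldown passed a test of its difference between the Chat and Snap25 lines (edgeR interaction term). The difference was 2.32 on the log2 scale for S100a10, 3.52 for S100a11 and 1.48 for S100b, each higher in the Chat line, and the last of these was lost in 11 of the 12 fits that left out 1 library.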

How the results depend on the processing

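Of 560 member results under an alternative, 512 kept their direction and side of the threshold, 26 lost a call, 7 gained one and 15 changed sign, and the cause was not tested. Sign changes concerned uncalled values. In TRAP_Chat against TRAP_Snap25, S100a16 was at -0.03 (log2) with only the groups compared, and leaving out 1 library gave -0.61 to 2.21 for S100a1 and -0.70 to 1 for S100a16. In the difference between the lines the ranges were -0.23 to 2.58 for S100a1 and -0.32 to 1.38 for S100a16. Between the inputs they were -0.52 to 0.29 for S100a6, -0.40 to 0.28 for S100a10, -0.63 to 0.16 for S100a16 and -0.27 to 0.08 for S100b.

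Called members numbered 5 to 8 in TRAP_Chat against PreIP_Chat, 6 to 7 in TRAP_Snap25 against PreIP_Snap25, 3 to 5 between the pulldowns and 1 to 4 in the difference between the lines when 1 library was left out, the 1 arising without any PreIP_Chat library or PreIP_Snap25 replicate 3. Over all genes the counts then ran from 2738 to 3914 in TRAP_Chat against PreIP_Chat (4273 with all libraries), from 1973 to 4009 in TRAP_Snap25 against PreIP_Snap25 (3558), from 671 to 1535 between the pulldowns (1073) and from 52 to 249 in the difference between the lines (166). With only the groups compared, 2362 genes passed in TRAP_Snap25 against PreIP_Snap25 and 382 between the pulldowns. DESeq2 called 1772 between the pulldowns, 501 in the difference between the lines and 1 between the inputs, and no filter gave 1761, 453 and 7.

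Same-numbered inputs and pulldowns had deviations that correlated at between 0.06 and 0.127 in the Chat line and between -0.037 and 0.167 in the Snap25 line, so they were not treated as pairs. Their descriptions also share a suffix, whose meaning the labels do not state. Across the lines, replicate 2 of the Chat line and replicate 1 of the Snap25 line carry the same suffix, which a block of replicate number does not follow. Each Chat library correlated best with its own number, but not each Snap25 library, a hint from the data and not the design. Blocks of line and replicate number were used where pulldown and input were compared. They gave 7 members and 4431 genes in TRAP_Chat against PreIP_Chat, 6 and 3663 in TRAP_Snap25 against PreIP_Snap25, and 3 and 206 in the difference between the lines. A block of replicate number across the lines, which says nothing of pairs of input and pulldown, gave 4 members and 920 genes between the pulldowns. Between the inputs it gave 0 of both. Per kilobase of exon, S100b took 67.2%, 75.4%, 56.2% and 53.9% of the family's sum in TRAP_Chat, TRAP_Snap25, PreIP_Chat and PreIP_Snap25. RLE scaling moved the median of all genes by at most 0.016 (log2). S100a4 in TRAP_Snap25 is limited by depth, with 1 to 7 counts per library.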
